A study of Mus musculus with 12 samples.

Results

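A set of 7190 CTCF sites was listed as bound in wild-type brain, heart and lung of fetal mice and in mutant brain and lung, but not in mutant heart. These sites were chosen from the peak lists themselves. The regions of 6 lists were merged where they overlapped by at least 1 bp, and a merged site carried a list when any region of that list touched it. The 7190 sites made up 12.8% of the 56248 merged sites and 36.7% of the 19565 sites that carried the wild-type lists of all 3 organs. They are called lost sites here, and the 10442 sites present in all 6 lists are called kept sites. Together they form the 17632 sites that carried the 5 lists other than mutant heart, of which 40.8% were lost (Wilson 95% interval 40.1 to 41.5%). This percentage follows from the rule that selected the sites and was not tested. The word lost refers to the peak list, since a site below the calling threshold can still hold protein.

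Whole brain, heart and lung came from E18.5 embryos labelled C57BL/6, from C57BL/6 N mice in the study's methods. They were wild type or homozygous for R567W, a germline change of arginine to tryptophan in the last zinc finger of Ctcf that was made by genome editing and is carried by every cell of the embryo. Both genotypes received human HEK293T chromatin, from an embryonic kidney cell line, as a spike-in. Each organ and genotype was represented by 1 CTCF ChIP library, so no difference given here has a replicate check, and intervals cover counting error only.

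CTCF is a DNA-binding protein that, with the cohesin ring, anchors chromatin loops and insulates neighbouring domains. Its central zinc fingers read a core motif that most bound sites share, while its last fingers reach over an upstream motif that only some sites carry. Organs share most strong CTCF sites, so a set that leaves the list in a single organ allows the other organs to be read at the very same positions. The sequences under the sites were therefore examined before their signals.

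Shown here are the lost sites with a perfect upstream motif and the highest wild-type heart fold enrichment, because the upstream motif was more frequent at lost than at kept sites. Each is read 5′ to 3′ on the strand of the core motif in GRCm38, with the 19 bases of the core motif and the 9 bases of the upstream motif in capitals. The upstream consensus was TGCAGTNCC, with 8 scored letters. A name is that of the coding gene with the nearest start site, however far, and the gene that holds the site is given where it is another. The Cox6a1 sequence lies in the gene record 4930401G09Rik, 33 bp from a start of Gm13832, the Notch3 sequence in a coding exon of Notch3, the Zfpm1 and Tmem192 sequences in introns of the gene records Gm20388 and Gm32507, and the Trim29 and Cnot11 sequences between genes.
Cox6a1, chr5:115358999-115359047, plus strand: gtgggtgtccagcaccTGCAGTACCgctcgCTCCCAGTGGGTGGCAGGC
Trim29, chr9:43287081-43287129, plus strand: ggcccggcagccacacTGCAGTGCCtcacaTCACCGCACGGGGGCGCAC
Zfpm1, chr8:122259540-122259588, minus strand: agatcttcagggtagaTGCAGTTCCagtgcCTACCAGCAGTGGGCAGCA
Tmem192, chr8:64941601-64941649, minus strand: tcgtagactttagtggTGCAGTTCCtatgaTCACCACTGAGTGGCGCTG
Cnot11, chr1:39530460-39530508, minus strand: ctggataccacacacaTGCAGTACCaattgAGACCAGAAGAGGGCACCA
Notch3, chr17:32143336-32143384, plus strand: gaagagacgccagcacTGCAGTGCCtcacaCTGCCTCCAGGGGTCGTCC

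In all of these 6 sequences the upstream motif ended 5 bp before the 19-base core window. Not every lost site had such a motif. The strongest lost sites with a core motif and no upstream match are shown for contrast, with only the core motif in capitals. The Mocs1, Crebbp and Rtp3 sequences lie in introns of Daam2, Adcy9 and Gm10030, and the Gapt sequence lies between genes.
Gapt, chr13:110368871-110368919, minus strand: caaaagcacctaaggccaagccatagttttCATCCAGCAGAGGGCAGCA
Mocs1, chr17:49468393-49468441, plus strand: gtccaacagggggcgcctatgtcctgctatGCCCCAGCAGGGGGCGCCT
Crebbp, chr16:4316188-4316236, plus strand: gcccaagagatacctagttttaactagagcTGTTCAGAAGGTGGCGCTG
Rtp3, chr9:110997380-110997428, plus strand: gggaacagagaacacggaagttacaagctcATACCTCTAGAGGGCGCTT

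Summit pileup, the number of reads stacked over a peak's summit, was recovered from the listed values for 100% of regions. Depth was estimated from the genome background of each list and the width of its shortest region, a stand-in for the fragment length. The estimate was higher in the mutant by a factor of 1.12 in heart and 1.04 in brain, and the factor in lung was 0.912. The lists themselves held 21059 regions in wild-type heart and 11515 in mutant heart, and between 32498 and 44386 in brain and lung of either genotype. Few sites left the list of mutant brain or lung alone. Of 10484 sites that carried the 5 lists other than mutant brain, 42 were lost, or 0.401% (0.297 to 0.541%). Of 10460 sites that carried the 5 lists other than mutant lung, 18 were lost, or 0.172% (0.109 to 0.272%). Both groups had to carry the mutant heart list, the shortest, so nearly all of their sites were the 10442 kept sites. These shares and the 40.8% for heart therefore do not come from like sites. A further 1866 common sites left the mutant heart list together with the list of another mutant organ, so the 7190 sites were 79.4% of the 9056 common sites that mutant heart lacked.

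The number of lost sites fell when longer lists were shortened to the length of the mutant heart list, which was the shortest and stayed unchanged. With the longer heart list trimmed to its strongest regions so that both had the same number, 2812 sites were lost, 25.7% of those that carried the other 5 lists. When every list was cut to the length of the shortest, 508 sites were lost, or 8.15%. With 1 library per group, a change in binding and a library of lower enrichment cannot be told apart in this count.

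Next, the strength of the lost sites was compared with that of kept sites. In the following, a pair of read numbers for brain or lung gives the wild type and then the mutant. In each of the 5 lists that held them, lost sites were the weaker class. Their median summit pileup was 24 reads in wild-type heart, against 36 reads at kept sites. In wild-type brain the medians were 53.5 and 90 reads, and in wild-type lung 102 and 159 reads. The gap was wider in the mutant lists. Lost sites had a median of 43 reads in mutant brain, where kept sites had 115, and of 51 reads in mutant lung, where kept sites had 129. The classes overlapped, since 857 lost sites (11.9%) exceeded the median of kept sites in wild-type heart, 1015 (14.1%) in wild-type brain and 1002 (13.9%) in wild-type lung. In mutant brain 431 (5.99%) and in mutant lung 253 (3.52%) did so.

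**Figure D1:**
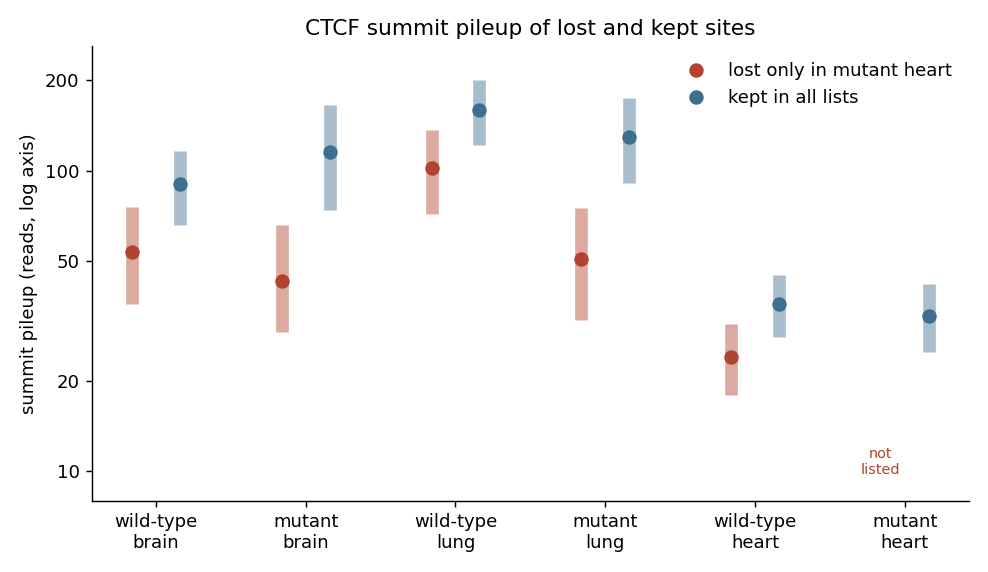
Summit pileup in reads, on a log axis, of the 7190 sites lost only in mutant heart and the 10442 kept sites, by list. Points are medians and bars run from the lower to the upper quartile over sites of 1 library. Lost sites lie below kept sites in the 5 lists that held them, with medians of 24 and 36 reads in wild-type heart and of 51 and 129 reads in mutant lung.

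The share lost fell in each successive decile of wild-type heart fold enrichment, the ratio of the pileup to the local background. In the lowest decile, 1342 of 1764 sites were lost (76.1%, 74.0 to 78.0%). In the fifth decile 817 of 1763 were lost (46.3%, 44.0 to 48.7%), and in the highest decile 142 of 1763 (8.05%, 6.87 to 9.42%). No decile was without lost sites. The fall across deciles is a description, since a weaker wild-type site lies closer to the limit for a call in mutant heart.

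For the ratio of mutant to wild-type heart at lost sites only a bound could be given, because a lost site has no mutant heart value. A pileup of 9 reads was needed for a call in mutant heart at the genome background. With both libraries divided by their own genome background, a pileup at that limit would put the median lost site at −1.56 on the log2 scale relative to wild-type heart. At 5935 lost sites (82.5%) the limit lay below −1 and at 1501 (20.9%) below −2. The kept sites had a measured median ratio of −0.25, with 7.06% below −1. This is a description, since a call in mutant heart, which needed at least 9 reads, is what set the kept sites apart. At 40 lost sites (0.556%) the limit was at or above 0, so the lists cannot show a fall there. A local background above that of the genome would raise the limit at a site.

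Most of the strongest lost sites also held fewer reads in mutant than in wild-type brain and lung, but in lung the direction turned when fold enrichment was read in place of pileup. In an intron of Dnah17, a gene for a dynein heavy chain of the axoneme, the region chr11:118102699-118103628 held 99 reads in wild-type heart, 145 in wild-type brain and 498 in wild-type lung. It held 63 reads in mutant brain and 232 in mutant lung, and its wild-type heart fold enrichment of 36.6 was the highest of all lost sites. A second lost site in an intron of Dnah17, chr11:118103789-118104466, held 68 reads in wild-type heart, 19 in mutant brain, and 340 and 76 in lung. The 49 bases around the motifs of these neighbours, whose core motifs lay 1121 bp apart, were identical at 44 positions.

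Near Gapt, the intergenic region chr13:110368404-110369266 held 97 reads in wild-type heart and 306 in wild-type brain but 46 in mutant brain, a log2 ratio of −2.98 after division by the background of each list. In lung it held 406 and 64 reads, a log2 ratio of −2.56. In an intron of Adcy9, an adenylyl cyclase gene, chr16:4315992-4316501 held 85 reads in wild-type heart, 141 and 25 in brain and 266 and 71 in lung. In an intron of Daam2, a formin gene, chr17:49468191-49468805 held 90 reads in wild-type heart, 80 and 46 in brain and 370 and 103 in lung. The latter regions are those named Crebbp and Mocs1 above. Sites near Rtp3, 2300002M23Rik, Rbm34, Pik3cg and Bach1 completed the 10 strongest, with wild-type heart fold enrichments between 25.2 and 29.2. Of these 10 sites, 9 had a log2 pileup ratio below −1 in brain and 9 in lung, where wild-type lung had a high local background. By fold enrichment the ratio was below 0 at 10 of 10 sites in brain, 8 of them below −1, but above 0 at 7 of 10 in lung. Lung fold enrichment was 18.7 at the first Dnah17 site without and 96.1 with the mutation, and 13.8 and 26.8 at the Gapt site. Lung reads given for single sites are therefore pileup values whose direction depends on the scale. All 10 sites had a core motif, 3 had an upstream motif and 0 lay within 1 kb of a start site.

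A further 5 lost sites were chosen for the smallest rank sum of fold enrichment over the 5 lists. High fold enrichment in mutant brain and lung was therefore part of the choice. They lay between genes, 222361 bp from the start of Brms1l, and in introns of Vwa3a, Bcl7a, Nhej1 and Tll2. The site near Brms1l, chr12:56058366-56058990, held 44 reads in wild-type heart, 151 in wild-type brain and 183 in mutant brain, and 239 and 142 reads in lung. The site in Nhej1, a gene of DNA end joining, held 41 reads in wild-type heart. It held 100 and 158 reads in brain, and 173 and 158 in lung. Over the 5 sites the log2 ratio ran from −0.19 to 0.41 in brain and from −0.65 to −0.03 in lung by pileup. By fold enrichment it ran from −0.33 to 0.40 in brain and from 0.93 to 1.72 in lung, above 0 at 5 of 5 sites. The limit in heart at these 5 sites lay between −2.44 and −2.11.

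The kept sites of highest wild-type heart fold enrichment were the promoters of Rapgef1 and Nipsnap2 and a region near Lbr. The Rapgef1 promoter held 216 reads in wild-type and 211 in mutant heart. At the Lbr region, wild-type heart held 153 reads and mutant heart 72. At the edge of the rule, kept sites with low mutant heart −log10 q lay in an intron of Pdcd4 and at the Emc10 promoter. Their mutant heart pileups were 10 and 11 reads, with −log10 q of 1.39 and 1.42. On the other side, 47 lost sites had a mutant heart region within 500 bp, the nearest being 248 bp away near Ccr1, 251 bp near Oxr1 and 261 bp near Msl1. The median lost site was 36296 bp from a mutant heart region.

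The same positions were then read in mutant brain and lung. Presence in the mutant brain and lung lists entered the rule, for lost and kept sites alike. It put a floor under the mutant signal, as the lowest listed pileup was 8 reads in mutant brain and 7 in mutant lung. How far a site lay above that floor did not enter. Each pileup was divided by the genome background of its list, and the mutant was divided by the wild type. On the log2 scale this ratio had a median of −0.42 in brain over lost sites and 0.21 over kept sites. In lung the medians were −0.80 and −0.11. The difference of lost from kept sites was −0.63 in brain (95% interval −0.66 to −0.60) and −0.69 in lung (−0.71 to −0.66). No spike-in factor entered these ratios, so a shift common to all sites of a library cannot be read from them, and the sign of a ratio depends on the scale. The contrast between lost and kept sites is the quantity compared. Wild-type lung had a local background 6.97 times its genome background in its top quintile of pileup, against 1.11 to 1.42 times in the other lists. With fold enrichment in place of pileup the difference was −0.57 in brain and −1.11 in lung. The medians themselves were then −0.28 over lost and 0.29 over kept sites in brain, and 0.43 and 1.54 in lung, so that in lung the sign turned while lost sites stayed below kept sites.

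At 4981 lost sites (69.3%) the pileup ratio lay below 0 in both brain and lung, against 31.6% of kept sites. By fold enrichment these shares were 23.3% and 1.69%. The pileup ratio was at or above 0 in both organs at 562 lost sites (7.82%) and at 32.1% of kept sites. The fold enrichment ratio was above 0 in both at 2012 lost sites and at 65.0% of kept sites. A pileup ratio below −1 was found at 22.7% of lost and 4.76% of kept sites in brain, and at 39.9% and 5.82% in lung. By fold enrichment it was found at 1297 lost sites and 3.83% of kept sites in brain, and at 290 lost sites (4.03%) and 0.115% of kept sites in lung. Read the other way, 1292 of the 1502 sites with a pileup ratio below −1 in both organs were lost in heart (86.0%, 84.2 to 87.7%). By fold enrichment this class held 108 sites, of which 105 were lost. Of the 3910 sites with a pileup ratio below 0 in neither organ, 14.4% were lost (13.3 to 15.5%). Of the 8804 sites above 0 in both organs by fold enrichment, 22.9% were lost.

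**Figure D2:**
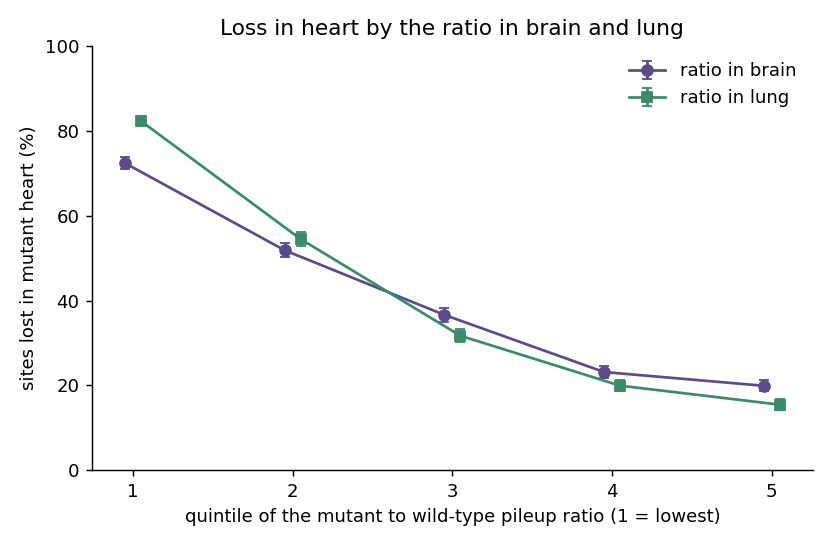
Percentage of sites lost in mutant heart in each quintile of the mutant to wild-type pileup ratio in brain and in lung, over the 17632 sites that carried the other 5 lists. Bars are Wilson 95% intervals, covering counting error only. The share fell from 72.4% to 19.9% across brain quintiles and from 82.3% to 15.5% across lung quintiles. By fold enrichment the share fell from 69.9% to 21.3% in brain and from 82.6% to 5.08% in lung.

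The contrast was also seen among sites of like wild-type heart strength. Within deciles of wild-type heart fold enrichment the difference in medians was −0.69 in brain and −0.68 in lung, and lost sites had the lower median in 10 of 10 deciles in each organ. Lost sites of the lowest decile had medians of −0.02 in brain and −0.57 in lung. Those of the highest decile had medians of −1.04 and −1.42, while kept sites of that decile had 0.21 and −0.07. By fold enrichment the medians of the highest decile were −0.85 in brain and 0.80 in lung at lost sites, and 0.27 and 2.17 at kept sites. In the lowest decile they were 0.05 and 0.16 at lost sites and 0.53 and 0.89 at kept sites, so in lung the lost sites of the highest decile lay above those of the lowest, the reverse of the order by pileup.

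Extremes of the pileup ratio illustrate the range at lost sites with a core motif. Ordered by the higher of the brain and lung ratios, the lowest were found near Fmr1, near Car7 and in a coding exon of Fbxo43. The region chrX:68313468-68314119, 364814 bp from the start of Fmr1, held 110 and 14 reads in brain, 168 and 13 in lung, and 40 in wild-type heart. The Notch3 exon shown above, in a gene for a receptor of the Notch pathway, held 76 and 15 reads in brain, 225 and 19 in lung and 45 in wild-type heart. Ordered by the lower of the brain and lung ratios, the highest were the promoters of Plxna4 and Hunk and a region near Kctd15. The Plxna4 promoter, of a semaphorin receptor gene, held 25 and 74 reads in brain, 12 and 42 in lung and 22 in wild-type heart. It was absent from the mutant heart list while more reads were held by the mutant than by the wild type in both other organs.

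Sequence was not used by the rule, and the upstream motif was compared next. The core motif was called within 100 bp of the wild-type heart summit at 6818 lost sites (94.8%) and 10267 kept sites (98.3%). In windows centred 1100 bp away it was called at 13.9% and 13.8%. Among sites with a core motif, the upstream motif with at most 2 mismatches was called at 2039 of 6818 lost sites (29.9%, 28.8 to 31.0%) and at 2399 of 10267 kept sites (23.4%, 22.6 to 24.2%). The difference was 6.54 percentage points (Newcombe 95% interval 5.18 to 7.90), and it had the same sign on 20 of 20 chromosomes compared. In the mirrored window 3′ of the core motif the same letters were called at 12.8% and 12.7%, a difference of 0.0645 points (−0.951 to 1.09).

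The difference was larger among sites of like strength, at 10.8 points within deciles of wild-type heart fold enrichment. Strong sites carried the motif more often, with 322 sites with and 1228 without it in the lowest decile, and 558 with and 1187 without it in the highest. In each of the 10 deciles a site with the upstream motif was lost more often than a site without it, by 5.59 to 17.1 points. In the fifth decile 252 of 430 sites with the motif were lost (58.6%, 53.9 to 63.2%), and 537 of 1293 without it (41.5%, 38.9 to 44.2%). In the highest decile the shares were 11.8% (9.41 to 14.8%) and 6.23% (4.99 to 7.76%).

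**Figure D3:**
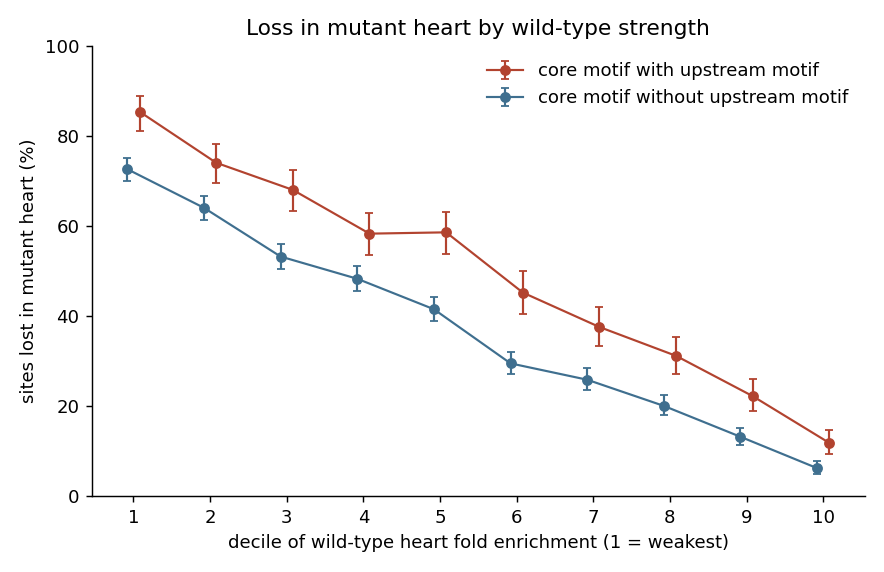
Percentage of sites with a core motif that were lost in mutant heart, by decile of wild-type heart fold enrichment and by presence of the upstream motif. Bars are Wilson 95% intervals, covering counting error only. Loss fell from the weakest to the strongest decile in both classes, and sites with the upstream motif lay higher in 10 of 10 deciles.

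Loss followed the quality of the upstream match. With 0 mismatches 252 of 380 sites were lost (66.3%, 61.4 to 70.9%), with 1 mismatch 49.4% (46.4 to 52.4%) and with 2 mismatches 42.1% (40.3 to 43.9%). With 3 mismatches the share was 38.7% (37.5 to 39.8%) and with 4 or more 36.7% (35.5 to 38.0%). The median pileup ratios of the same classes rose from −0.57 to 0.13 in brain and from −1.01 to −0.20 in lung. By fold enrichment they rose from −0.44 to 0.21 in brain, but in lung they were 0.71 with 0 mismatches, 1.03 with 1 and between 1.11 and 1.16 with more. The 128 kept sites with a perfect match were the stronger ones, with a median of 41 reads in wild-type heart, against 24 reads at the 252 lost sites.

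The spacing of the motif was also examined. Among sites with at most 1 mismatch, the upstream motif ended 5 bp before the core window at 564 of 790 lost sites (71.4%) and 413 of 679 kept sites (60.8%). It ended 6 bp before at 18.7% and 22.2%. With the spacing held at 5 bp, every scored letter of the consensus matched more often at lost than at kept sites. The T at position 1 matched at 34.6% of lost and 27.6% of kept sites, a difference of 7.07 points (5.65 to 8.50). The smallest difference was 2.30 points (0.942 to 3.67), at position 5, where positions are counted from the 5′ end of the consensus.

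**Figure D4:**
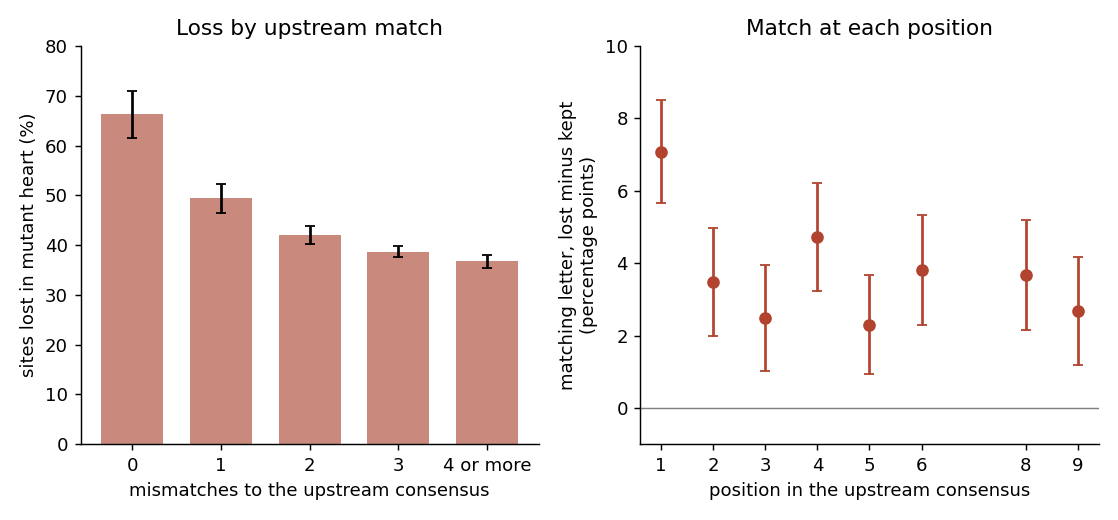
Left, percentage of core-motif sites lost in mutant heart by the number of mismatches to the upstream consensus. Right, difference between lost and kept sites in the percentage that match each scored position of the consensus, 5 bp before the core window. Bars are 95% intervals, Wilson on the left and Newcombe on the right, covering counting error only. Loss was 66.3% with 0 mismatches and 36.7% with 4 or more, and position 1 differed by 7.07 points.

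The upstream motif was absent from most of the set, in which 4779 lost sites had a core motif without it and 372 had no core motif. Among core-motif sites without it, the lost ones had medians of −0.31 in brain and −0.67 in lung and the kept ones 0.25 and −0.09. Among sites with it, the lost ones had −0.69 and −1.11 and the kept ones 0.04 and −0.22. The log2 pileup ratio in lung lay below −1 at 56.1% of lost sites with the motif and at 32.7% of lost core-motif sites without it, shares that were 4.71% and 3.68% by fold enrichment. On that scale the lung medians of lost sites were 0.39 with and 0.46 without the motif, and those of kept sites 1.64 and 1.52, so the order of kept sites turned. In brain they were −0.52 and −0.18 at lost sites and 0.14 and 0.32 at kept sites.

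The core motif itself was weaker at lost sites, with a median matrix score of 17.5 against 19.3. The difference of −1.79 was −0.82 within deciles of wild-type heart fold enrichment. It contained a CpG, the dinucleotide whose methylation can block CTCF, at 45.1% of lost and 52.9% of kept core-motif sites, a difference of −7.76 points (−9.28 to −6.23) that was −5.80 within deciles and negative on 20 of 20 chromosomes. Methylation itself was not analysed here. The sequence within 100 bp of the summit had a median GC content of 49.3% at lost and 51.2% at kept sites, a difference of −1.99 points that was −1.10 within deciles. The summit lay in sequence marked as repeat at 10.9% of lost and 5.48% of kept sites. Of the 547 sites without a core motif 68.0% were lost, and of the 1357 sites in repeats 57.8%. These classes also had low wild-type heart fold enrichment, with medians of 6.95 and 8.69, and within deciles of fold enrichment the repeat difference was 3.94 points.

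The place of the sites relative to genes differed as well. The wild-type heart summit lay within 1 kb of a start site at 1021 lost sites (14.2%, 13.4 to 15.0%) and 2301 kept sites (21.3 to 22.8%). This difference of −7.84 points (−8.96 to −6.70) widened to −12.1 within deciles of wild-type heart fold enrichment and was negative on 20 of 20 chromosomes. Introns held 43.4% of lost and 36.9% of kept sites, other exons 5.77% and 4.91%, and intergenic sequence 36.6% and 36.2%. Within deciles the intergenic share was 3.56 points higher and the intron share 7.49 points higher at lost sites. In the highest decile 7.04% of lost and 28.9% of kept sites were at promoters.

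Promoter sites had higher ratios outside heart. Their median log2 pileup ratio in brain was 0.12 at lost and 0.52 at kept promoters, against −0.50 and 0.12 at sites elsewhere. In lung the medians were −0.48 and 0.00 at promoters, and −0.85 and −0.15 elsewhere. By fold enrichment the lung medians were 0.49 and 1.77 at promoters, and 0.42 and 1.48 elsewhere. The upstream motif was called at 22.1% of promoter sites with a core motif and at 26.8% of the others. The contrast of lost with kept sites was thus seen at promoters and away from them.

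Neighbouring sites were examined next. The nearest other site of the 17632 was itself lost for 41.1% of lost sites (39.9 to 42.2%) and for 39.5% of kept sites (38.6 to 40.5%). Within 10 kb the shares were 37.3% (35.3 to 39.4%) and 39.3% (37.7 to 41.0%). The longest runs held 10 lost sites in a row. They lay between Kcnmb1 and Spdl1 on chromosome 11, between Tmem121 and Rapgef5 on chromosome 12, between Slc4a9 and Pcdhga12 on chromosome 18, between Fmr1 and Atp2b3 and between Itm2a and Pcdh19 on the X chromosome. The shortest span was chr11:33958624-34881966 and the longest chrX:107435832-133658321, so a run need not be a compact block. The run length to expect from the share lost alone was not computed.

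On the X chromosome 169 of 269 sites were lost (62.8%, 56.9 to 68.4%), while the 19 autosomes ranged from 36.6% to 44.0%. The difference from autosomes was 22.4 points (16.4 to 28.0). X sites were also weaker in wild-type heart, with a median of 20 reads against 31 on autosomes. The difference was 7.06 points within deciles of wild-type heart fold enrichment and 0.333 points within deciles of wild-type heart pileup. In wild-type brain and lung the X medians were 49 and 84 reads, and the autosomal medians 75 and 136. The single Y site of the set was lost, and the mutant heart list held 0 regions on Y against 1 or 2 in the other lists. The sex of the embryos was not given in the sources used here.

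Finally, the lost sites were assigned to genes of known role. A site counted for a list when its wild-type heart summit lay in a listed gene or within 10 kb of it, and each count is read against the 40.8% lost over all sites. No list was tested. Sites at cardiac transcription factor genes were lost in 11 of 26 cases (42.3%, 25.5 to 61.1%), those at genes of calcium handling and conduction in 9 of 29 (31.0%, 17.3 to 49.2%) and those at genes of trabeculation and the ventricular wall in 9 of 25 (36.0%, 20.2 to 55.5%). Genes of epicardium, endocardium and cardiac fibroblasts had 10 of 18 sites lost (55.6%, 33.7 to 75.4%).

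Among the cardiac transcription factors, Tbx2, a repressor that patterns the atrioventricular canal, had 2 of 5 sites lost. The stronger of these lay 9180 bp from its start, in an intron of Bcas3 and 2610027K06Rik, and held 36 reads in wild-type heart, 44 and 39 in brain, and 207 and 135 in lung. Tead1 and Mef2a, which drive muscle gene expression, each had 2 of 2 sites lost, as did Zfpm2, the cofactor of cardiac GATA factors. Gata4 had 0 of 3 sites lost and Tbx3 0 of 2, and Hand1, Hey1, Hey2, Srf and Myocd each had 0 of 1.

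For conduction, an intron of Cacna1c, which encodes the pore of the cardiac L-type calcium channel, held the strongest lost site. It had 36 reads in wild-type heart, 102 and 40 in brain, and 208 and 83 in lung. Its upstream motif had 0 mismatches, and 3 of the 5 sites at this gene were lost. A lost site in an intron of Kcnq1, a repolarizing potassium channel gene, held 30 reads in wild-type heart, 51 and 28 in brain and 110 and 50 in lung, and a mutant heart region lay 789 bp away. For the ventricular wall, Vangl2, a planar cell polarity gene, had 2 of 2 sites lost and Prdm16, a transcriptional regulator, 2 of 5. Jag1 and Efnb2 each had 0 of 2 sites lost, and Dll4, Notch1, Mib1, Erbb2 and Dtna each had 0 of 1. The stronger Vangl2 site held 30 reads in wild-type heart, 77 and 42 in brain and 131 and 30 in lung, and its upstream motif had 1 mismatch. The weaker one held 28 reads in wild-type heart and 30 and 57 reads in brain.

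Sites at sarcomere genes were lost in 5 of 33 cases (15.2%, 6.65 to 30.9%), below the background. Their median wild-type heart fold enrichment was 12.0, which lies in a decile where 29.5% of all sites were lost. Within 50 kb sites at sarcomere genes were lost in 19 of 83 cases (22.9%). The lost ones included a site 9701 bp from the start of Myl2, the ventricular regulatory light chain gene, a site in an intron of Ttn, the giant spring of the sarcomere, and a site in the Dnaaf3 intron beside Tnni3, the cardiac inhibitory troponin. The Myl2 site held 29 reads in wild-type heart, 103 and 34 in brain, and 159 and 39 in lung. This site and those of Cacna1c and Vangl2 are shown because each paired an upstream motif of at most 1 mismatch with log2 pileup ratios below −1 in brain and lung. By fold enrichment, given for wild type and then mutant, the mutant was lower in brain at all 3, with 17.9 and 11.5 at Myl2, 30.2 and 11.1 at Cacna1c and 22.9 and 9.40 at Vangl2. In lung it was higher at Myl2 (9.36 and 13.4) and Cacna1c (12.2 and 28.2) and lower at Vangl2 (15.97 and 12.8).
Myl2, chr5:122091253-122091301, minus strand: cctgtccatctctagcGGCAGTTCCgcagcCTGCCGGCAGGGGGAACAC
Cacna1c, chr6:118923026-118923074, plus strand: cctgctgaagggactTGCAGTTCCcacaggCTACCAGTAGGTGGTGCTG
Vangl2, chr1:172012177-172012225, plus strand: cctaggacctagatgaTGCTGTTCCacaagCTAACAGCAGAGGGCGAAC

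In the endothelial and fibroblast group, Pecam1, an endothelial adhesion gene, had 2 of 2 sites lost, and Cdh5, the vascular endothelial cadherin gene, 1 of 2. Col1a1 had 1 of 3, Pdgfra, a receptor gene of fibroblasts, 0 of 2, and Aldh1a2 and Upk3b, genes of the epicardium, 0 of 1 each. Npr3 had 2 of 2 sites lost, Tbx18 1 of 2, and Nfatc1 and Postn 1 of 1 each. The stronger Pecam1 site held 36 reads in wild-type heart, 87 and 67 in brain, and 150 and 157 in lung. The single Col1a2 site, near this collagen gene of fibroblasts, was lost and held 31 reads in wild-type heart, 26 and 26 in brain and 144 and 58 in lung. In bulk tissue, fewer cells of a type and less binding per cell cannot be told apart.

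Genes of the other organs gave values on either side. Sites at forebrain regulators were lost in 7 of 19 cases (36.8%, 19.1 to 59.0%), including the single sites at Dlx2 and Pax6, while Neurog2 and Gad1 each had 0 of 2. The Dlx2 site, at a gene of inhibitory neuron development, held 30 reads in wild-type heart, 55 and 85 in brain, and 152 and 141 in lung. Lung development genes had 20 of 43 sites lost (46.5%, 32.5 to 61.1%), but 30 of these sites, 14 of them lost, were assigned to Fgfr2, whose gene record in the annotation spans chr7:130162451-133123350 and covers other genes such as Btbd16 and Hmx3. The single site at Nkx2-1, the lung and thyroid lineage factor, lay 4395 bp from its start, in an exon of the non-coding record Gm26973, and held 40 reads in wild-type heart, 104 and 67 in brain and 172 and 87 in lung.

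Of the chromatin lists, genes of CTCF and cohesin had 7 of 20 sites lost (35.0%, 18.1 to 56.7%), with Ctcf at 1 of 2 and Nipbl, the cohesin loader, at 2 of 3. Hdac8 had 2 of 2 lost, Stag2 1 of 2 and Pds5b 1 of 4. Smc3, Stag1 and Esco1 each had 0 of 2 lost, and Pds5a had 0 of 1. Imprinted genes had 6 of 30 lost (9.51 to 37.3%) and within 50 kb 11 of 49 (22.4%), among them the promoter site of Mest, which held 31 reads in wild-type heart, 82 and 102 in brain and 110 and 97 in lung. Hox clusters had 9 of 18 lost, the strongest at the Hoxa10 promoter with 47 reads in wild-type heart, 49 and 51 in brain and 165 and 54 in lung. Ribosomal protein genes had 23 of 86 lost (26.7%).

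Clustered protocadherins, neuronal adhesion genes whose promoter choice uses CTCF, had 8 of 9 sites lost (88.9%, lower limit 56.5%), and within 50 kb 10 of 15 (66.7%). All 9 fell within 10 kb of the Pcdhga1 gene record, which overlaps those of the other Pcdhg genes, so they are neighbours within 1 locus rather than separate genes. The site at the Pcdhgb7 promoter, chr18:37751278-37751898, held 37 reads in wild-type heart, 44 and 44 in brain, and 104 and 21 in lung. The site at the Pcdhgb8 promoter held 27 reads in wild-type heart, 34 and 29 in brain and 74 and 18 in lung. At the Pcdhga12 promoter the values were 26 reads in wild-type heart, 38 and 43 in brain and 44 and 36 in lung. After division by the background of each list, the log2 ratio in brain was −0.25 at the Pcdhgb7, −0.48 at the Pcdhgb8 and −0.07 at the Pcdhga12 promoter, and in lung −2.21, −1.94 and −0.19. The fold enrichment in brain was 14.6 and 13.9 at the Pcdhgb7, 11.6 and 6.56 at the Pcdhgb8 and 14.4 and 14.6 at the Pcdhga12 promoter. In lung it was 12.3 and 8.86, 9.68 and 7.65, and 13.5 and 15.3, so the lung difference was smaller than by pileup at the first 2 and turned at the Pcdhga12 promoter.

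**Figure D5:**
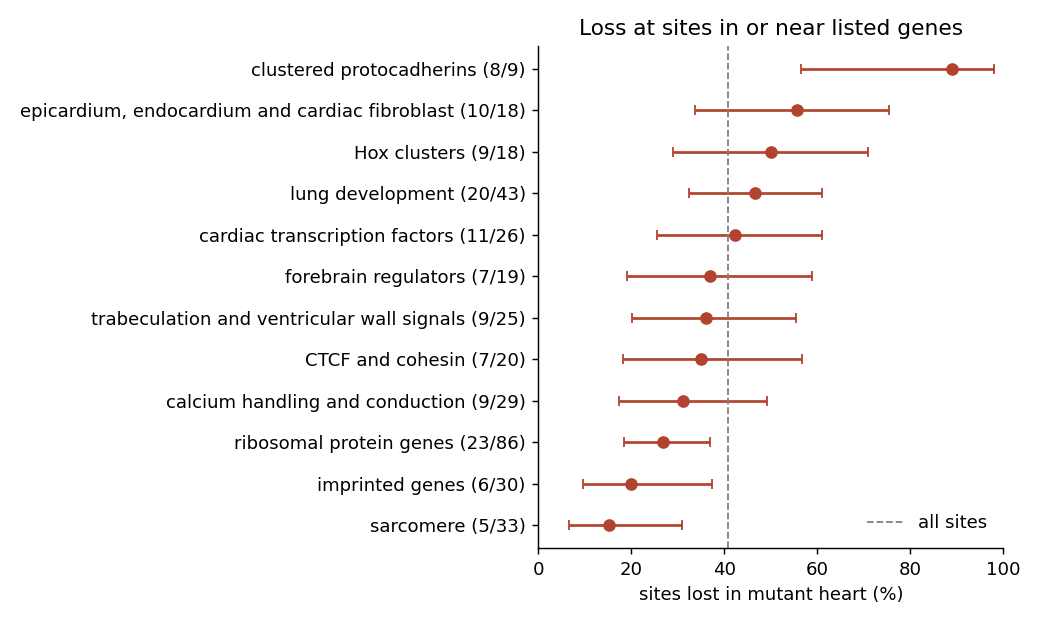
Percentage of sites lost in mutant heart among sites in or within 10 kb of the genes of each list, with the number lost and the number of sites in parentheses. Bars are Wilson 95% intervals, covering counting error only, and the dashed line marks the 40.8% lost over all 17632 sites. Sarcomere genes lie lowest at 15.2% and clustered protocadherins highest at 88.9%.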

How the data were processed

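CTCF ChIP-seq had been carried out on 6 ChIP libraries with 6 input libraries. The submitters' processing notes name Trim Galore, Bowtie2, MACS2 and deepTools with the builds mm10 and hg38, and the authors called peaks separately in each library. The control of each list is not given in the sources used here. The deposited lines held a score, a whole number made from the q-value that was not used, the fold enrichment, a ratio to the local background with a pseudocount of 1, and p-values and q-values as −log10. The deposited summit offset, in bp, gave the summit. Spike-in factors do not enter a peak list.

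Repeated lines of a region (extra summits) were reduced to the summit of highest value. Regions were merged with bedtools 2.31.1. Pileup and local background were solved together from fold enrichment and p-value as a whole number of reads, and divided by the lowest background of the list where lists were compared. The genome was GRCm38 with the basic GENCODE M21 annotation. The core matrix of 19 columns was learned from the 2000 strongest wild-type brain peaks, of which 1982 contributed, and called within 100 bp of the wild-type heart summit at p of 1e-04 or less. The upstream motif was searched within 30 bp 5′ of it on the same strand with at most 2 mismatches. Pileup recovery, motif calls and the comparison within deciles were tested on simulated data.

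With 1 library per organ and genotype no test was made. Shares have Wilson, differences of shares Newcombe and medians order-statistic 95% intervals. Members, lists and named sites were chosen with earlier results of these data known. Named sites were the 10 lost sites of highest wild-type heart fold enrichment, the 5 of smallest rank sum over 5 lists, the 6 with and 4 without an upstream match shown as sequences, up to 3 in each gene list, 3 on each side of the threshold, the 3 strongest kept sites and 3 at each end of the brain and lung ratios. Other genes with a lost site, Notch3 among the ratio examples and the 3 sequences of Myl2, Cacna1c and Vangl2 were chosen after their values were seen. Some sites that the rule names are not reported here. Computations used scipy 1.17.1, pysam 0.24.0, statsmodels 0.14.6, matplotlib 3.10.9, pandas 2.3.3 and numpy 2.4.6 under Python 3.11.15.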

Additional observations from a re-analysis of the deposited data

Results flagged for a closer look

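The pileup ratios of kept sites had opposite signs in the other organs. On the log2 scale, the mutant over wild-type pileup ratio had a median of 0.21 in brain and −0.11 in lung. With 1 library for each organ and genotype, this difference was not tested. The ratio carries no spike-in factor, and estimated depth in the mutant was 1.04 (brain) and 0.912 (lung) of that in the wild type, whose part in the difference was not tested. By fold enrichment the medians of kept sites were 0.29 in brain and 1.54 in lung, so the opposite signs depend on the scale.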

How the results depend on the processing

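No paired analysis of a change in heart alone was possible because each organ and genotype had 1 library. Of 74 recomputed values 45 lay within the interval of the reported value, or within 1.5 times a count, 29 moved further and 0 changed sign. The counts, the percentages lost and the shares with a lost neighbour are among the 74 and cannot change sign. The mirrored window 3′ of the core motif is counted too. With every list cut to the shortest length, 508 sites were lost (8.15%), the core motif difference was −0.771 points, the promoter difference −15.4 points, the ratio difference −0.41 in brain and −0.39 in lung, and the nearest site was lost for 8.27% of lost sites. This choice leaves 6232 sites. With the heart lists cut to equal length, 2812 sites were lost (25.7%). With a −log10 q of at least 5 the core motif difference was −2.87 points. Within deciles of wild-type heart fold enrichment the upstream difference was 10.8, the core difference −1.78 and the promoter difference −12.1 points, and the brain ratio difference −0.69. Within deciles of wild-type heart pileup these were 11.8, −1.31, −12.1 and −0.69. The upstream difference was 4.97 points with at most 1 mismatch and 0.0645 in the mirrored window, and the core difference −8.79 points at p of 1e-05 or less. Fold enrichment in place of pileup gave −0.57 in brain and −1.11 in lung. On that scale, which was read for medians, shares and single sites after seeing the data, the lung medians were above 0 at lost and kept sites. For sites with a neighbour within 100 kb, 39.9% of lost sites had a lost neighbour. Alternatives chosen after seeing the data gave −0.67 in brain and −0.72 in lung within deciles of wild-type pileup of the same organ, 11.7 points for the upstream motif within deciles of wild-type brain pileup, and −0.56 and −0.59 at core-motif sites without the upstream motif. The cause of these moves was not tested. A mutant heart pileup under 9 reads could not be listed, which limits what the lists show at weak sites.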
